A study of Mus musculus with 44 samples.

Results

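Entry of a cell into DNA replication is governed by cyclin-dependent kinases (CDKs), which D and E cyclins switch on and 2 families of small proteins hold back. D cyclins work with Cdk4 and Cdk6 and answer to signals from outside the cell, whereas E cyclins work with Cdk2 near the start of S phase. The Cip/Kip inhibitors bind CDKs already joined to a cyclin, and the INK4 inhibitors keep Cdk4 and Cdk6 from their D cyclins. In B cells, Ccnd2 is known as the D cyclin that follows antigen or lipopolysaccharide (LPS) stimulation. The 10 genes followed here are the Cip/Kip inhibitors Cdkn1a, Cdkn1b and Cdkn1c, the INK4 inhibitors Cdkn2c and Cdkn2d, the D cyclins Ccnd1, Ccnd2 and Ccnd3, and the E cyclins Ccne1 and Ccne2. Each was read through every array probe set annotated to that single gene symbol, which gave 23 of the 34945 probe sets with 1 symbol.

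The cells were CH12.LX, a mouse B cell lymphoma line, plated at 100000 cells per ml and activated with LPS. They were given TCDD (2,3,7,8-tetrachlorodibenzo-p-dioxin), which binds and activates the aryl hydrocarbon receptor (AhR), at 10 nM, or the vehicle alone. The vehicle, dimethyl sulfoxide (DMSO), was at 0.01% in both arms. The 44 single-colour arrays form 11 groups of 4: 1 of untreated cells taken at 0 h, 5 of vehicle cells and 5 of TCDD cells, the treated ones after 8, 12, 24, 36 and 48 h. All cultures were of this one line, the LPS of the treated ones was from Salmonella typhosa, and the 4 replicates were each handled on a day of their own, called days 1 to 4 here. Untreated cells were measured at 0 h only, so LPS, the vehicle and time in culture cannot be told apart in any comparison with them. The RNA came from whole cultures, in which fewer cells with a transcript and less of it per cell cannot be told apart.

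Of 8 B cell markers, 7 had a probe set and all 7 passed the filter on dim probe sets, with group means of Cd79b between 11.65 and 13.08, although Pax5 was dim (5.99 to 6.79). Of 5 T cell markers measured, Cd3d and Cd4 stayed below the filter, Cd3e (5.34 to 6.39) and Cd3g (5.58 to 6.58) passed it narrowly, and Cd8a (8.62 to 9.38) lay above it. Of 5 myeloid markers, Lyz2 and Itgam stayed below, Cd14 (5.61 to 6.62) and Mpo (4.98 to 6.49) passed narrowly, and Adgre1 (7.31 to 9.21) lay above. Median array signals ran from 45.2 to 99.2. Replicate arrays correlated with r between 0.949 and 0.980. 4 arrays stood apart in technical measures: untreated days 3 and 4, vehicle at 12 h day 4 and vehicle at 48 h day 2. Untreated day 4 and vehicle at 12 h day 4 had the highest median signals, 99.23 and 87.89. The other measure was the log2 ratio of 3′ to 5′ signal of the transferrin receptor control. It was 3.044 in untreated day 3 and 2.845 in vehicle at 48 h day 2, and 0.929 to 1.521 in the other 42 arrays. Where leaving them out changed a call, the value without them is given. Without them the untreated group kept days 1 and 2 only, so its days no longer matched those of the vehicle groups. The number of arrays per group limits the precision.

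Of the 10 genes, 6 have an entry among RefSeq promoters of the GRCm38.p6 assembly, with 9 transcription start sites in all. The windows shown are the 250 bases before the start site of the 3 genes whose TCDD differences at 8 h passed the test. Capitals mark the pentamer GCGTG or its complement CACGC, the core of the AhR response element, on either strand. The Cdkn1b window is chr6:134920151-134920400 on the plus strand, that of Cdkn2d is chr9:21291210-21291459 on the minus strand, and that of Ccne1 is chr7:38107491-38107740 on the minus strand; all 3 lie upstream of the annotated gene and are written 5′ to 3′ along its strand.
Cdkn1b: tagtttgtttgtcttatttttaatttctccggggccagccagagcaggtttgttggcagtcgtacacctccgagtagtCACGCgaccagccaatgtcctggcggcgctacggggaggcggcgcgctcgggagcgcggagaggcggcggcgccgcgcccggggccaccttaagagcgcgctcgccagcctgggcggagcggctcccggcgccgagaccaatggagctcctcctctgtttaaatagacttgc
Cdkn2d: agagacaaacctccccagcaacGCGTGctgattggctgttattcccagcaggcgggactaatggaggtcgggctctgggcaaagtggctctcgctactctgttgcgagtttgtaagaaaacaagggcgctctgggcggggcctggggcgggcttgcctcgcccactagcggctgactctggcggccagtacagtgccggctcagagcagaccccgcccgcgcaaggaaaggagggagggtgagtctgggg
Ccne1: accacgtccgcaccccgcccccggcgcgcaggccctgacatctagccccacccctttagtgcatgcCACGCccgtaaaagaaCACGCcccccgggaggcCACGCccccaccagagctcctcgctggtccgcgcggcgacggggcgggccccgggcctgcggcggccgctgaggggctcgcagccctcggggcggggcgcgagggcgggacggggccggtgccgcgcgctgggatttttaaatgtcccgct

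The core begins 172 bases before the start in Cdkn1b, 228 bases before it in Cdkn2d, and 184, 168 and 151 bases before it in Ccne1. It was also present once in a window of Cdkn1a, Cdkn2c and Ccnd3, each at the second of their start sites, so 6 of the 9 windows held it. Over all 32851 windows of the same length, 28.2% held it. The E2F sites TTTCCCGC and TTTGGCGC, searched on both strands, were in 0 of the 9 windows and in 1.3% of all windows. The E-box CACGTG was in 0 of the 9 and in 6.02% of all. As the core was the only motif found in the 9 windows, no overlap between motifs was possible there. Such matches describe the letters and do not show binding.

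Values below are log2 of the normalized signal plus 16, on which a floor of 4 is the lowest value possible and the change of a dim gene is understated. A probe set was tested if its highest group mean was above 6.21, the median of all values, which 21 of the 23 passed. These 21 belong to 9 genes and are read against 25236 probe sets tested in all. A difference is called when its adjusted p from limma, with Benjamini-Hochberg adjustment over those 25236, is below 0.05; errors of differences are limma standard errors (SE) with 4 arrays per group. Levels of different probe sets were not set against each other.

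The first question was how TCDD cells differed from vehicle cells of the same time. Within 8 h, TCDD cells had 2.39-fold more Cdkn1b and 1.52-fold more Cdkn2d signal and 2.31-fold less Ccne1 signal than vehicle cells, on 1 probe set each. The other probe sets, dimmer for Cdkn1b and brighter for Ccne1, differed by 0.63 and -0.81 and were not called (limma, adjusted p = 0.333 and 0.161). Of the 21 probe sets, 3 were called at 8 h, where 2.52% of all probe sets were. The count was 4 at 12 h (background 5.82%), 0 at 24 h (4.74%; 3 of 21 had an unadjusted limma p below 0.05), 1 at 36 h (3.53%) and 2 at 48 h (6%). The 10 calls fell on 6 genes. In all 10 the 4 same-day pairs of TCDD and vehicle arrays moved one way, as they did in 98.6% of the 5703 calls over all probe sets, and in 9 the arrays of the 2 groups did not overlap, as in 88.9% of those calls. The median TCDD difference over the 21 was -0.03, 0.07, -0.20, -0.13 and -0.15 at the 5 times, beside medians over all probe sets that lay between -0.03 and 0.00.

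**Figure D1:**
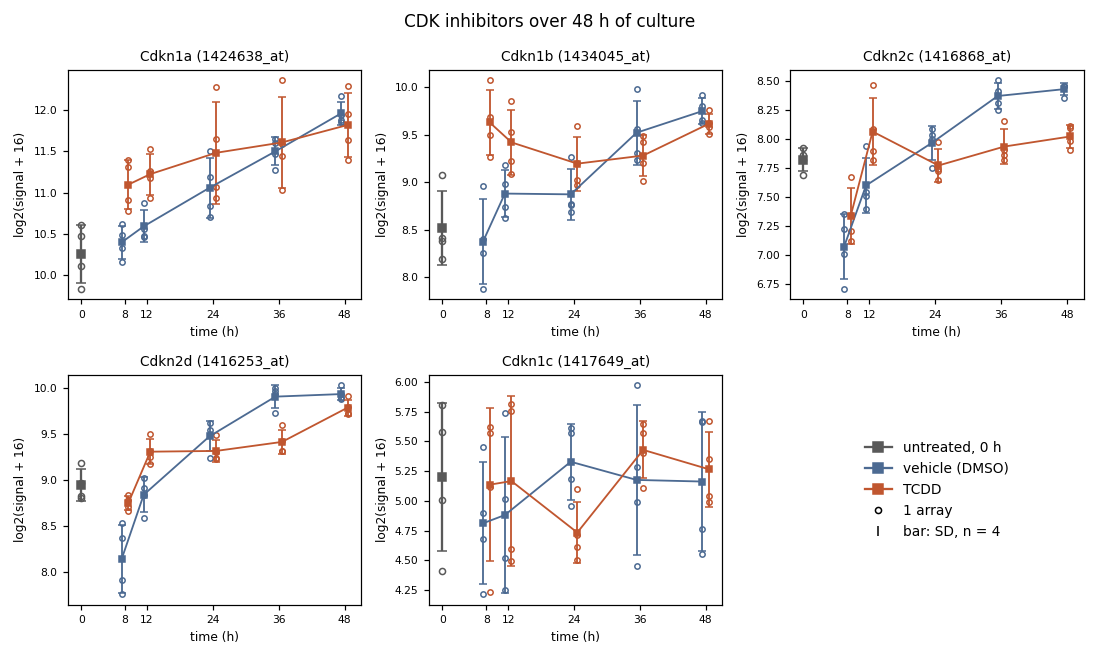
Log2(signal + 16) of the 5 CDK inhibitors against time in hours, with 1 open circle per array and squares with bars for the mean and SD of 4 arrays. Each plot by gene shows the brightest probe set, except for Ccnd1 and Ccne1, where another had at least 2 more calls. Cdkn1b in TCDD cells starts at 9.63 at 8 h, above the vehicle mean of 8.37, and the TCDD and vehicle means of Cdkn2d change places between 12 and 24 h.

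Cdkn1b encodes p27, the Cip/Kip inhibitor of Cdk2 complexes that is typical of resting lymphocytes. On its brighter probe set (1434045_at) the vehicle arrays at 8 h read 8.96, 8.26, 7.88 and 8.40 on days 1 to 4, and the TCDD arrays 10.08, 9.50, 9.27 and 9.68. Every TCDD array was higher than every vehicle array, and the same-day differences of 1.12, 1.25, 1.39 and 1.28 lay close together. The difference was 1.26 ± 0.21 (limma, adjusted p = 0.000141). At 12 h it was 0.54 ± 0.21, again higher in 4 of 4 pairs (0.67, 0.35, 0.60 and 0.55). This was not called by the fit without the day (limma, adjusted p = 0.14) and was called with the day as a block (limma, adjusted p = 0.000766).

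The arrays of the 2 arms overlapped from 12 h on. At 24 h Cdkn1b was still higher in 4 of 4 pairs, by 0.32 ± 0.21 (limma, adjusted p = 0.549). At 36 h the vehicle arrays read 9.98, 9.30, 9.24 and 9.56 and the TCDD arrays 9.43, 9.01, 9.20 and 9.49, which overlap. TCDD cells then read lower in 4 of 4 pairs, with a difference of -0.24 ± 0.21 (limma, adjusted p = 0.734), and at 48 h the difference was -0.13 ± 0.21 (limma, adjusted p = 0.825). The TCDD difference at 36 h minus that at 8 h was -1.50 ± 0.30 (limma, adjusted p = 0.00462), and the F test of all 4 later times against 8 h was called (limma, adjusted p = 0.00524). That F test lost its call without day 2, 3 or 4 (adjusted p = 0.178, 0.0725 and 0.143) and with arrays centred on their medians (limma, adjusted p = 0.39). The 8 h difference was called in every alternative but the one that used only the arrays compared (limma, adjusted p = 0.064).

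In vehicle cells Cdkn1b was near its untreated level at 8 h and higher at 36 and 48 h. Untreated arrays read 9.08, 8.42, 8.38 and 8.19. Vehicle cells at 8 h differed from them by -0.14 ± 0.21 (limma, adjusted p = 0.704), were 1.01 ± 0.21 higher at 36 h (limma, adjusted p = 0.000349) and 1.23 ± 0.21 higher at 48 h (limma, adjusted p = 9.84e-06). With the day as a block the smaller differences at 12 h (0.36) and 24 h (0.36) were called too (limma, adjusted p = 0.0103 and 0.0146, the latter 0.0629 with a random block), as were the steps from 8 to 12 h (0.51, adjusted p = 0.00635) and from 24 to 36 h (0.65, adjusted p = 7.74e-05), the latter called without the 4 arrays as well (limma, adjusted p = 0.0448). Over the 11 groups the highest mean was that of vehicle at 48 h (9.75), followed by TCDD at 8 h (9.63), TCDD at 48 h (9.62) and vehicle at 36 h (9.52), and the lowest that of vehicle at 8 h (8.37). Each of the 10 neighbouring pairs in that order overlapped. Day 1 gave the highest of the 4 arrays in 10 of the 11 groups. A second, dim Cdkn1b probe set (1419497_at) had group means between 5.61 and 6.33 and no call in any comparison with all arrays. Its step from 36 to 48 h was 0.70 ± 0.27 (limma, adjusted p = 0.0878), called at 0.98 without the 4 arrays that stood apart (limma, adjusted p = 0.0123). Its TCDD differences of -0.22 at 24 h and 0.35 at 36 h had the sign opposite to those of the brighter probe set. At 8, 12 and 48 h the signs were alike.

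Cdkn2d encodes p19, an INK4 inhibitor that blocks Cdk4 and Cdk6, and had 1 probe set (1416253_at). At 8 h the vehicle arrays read 8.53, 8.36, 7.75 and 7.91 and the TCDD arrays 8.84, 8.78, 8.66 and 8.71. The lowest TCDD array lay above the highest vehicle array, although the same-day differences ran from 0.31 to 0.90. The difference was 0.61 ± 0.12 (limma, adjusted p = 0.00199). At 12 h it was 0.47 ± 0.12 (limma, adjusted p = 0.0148), with vehicle arrays of 9.02, 8.91, 8.84 and 8.58 and TCDD arrays of 9.31, 9.49, 9.25 and 9.17, which did not overlap.

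At 36 h the order of the Cdkn2d signals was reversed. Vehicle arrays read 9.96, 9.93, 9.72 and 9.99 and TCDD arrays 9.59, 9.42, 9.31 and 9.31, so that every TCDD array was lower than every vehicle array. The difference was -0.49 ± 0.12 (limma, adjusted p = 0.014). The differences at 24 h (-0.16 ± 0.12, adjusted p = 0.643) and 48 h (-0.15 ± 0.12, adjusted p = 0.612) were not called by limma. The change in the TCDD difference from 8 h to 36 h was -1.10 ± 0.17 (limma, adjusted p = 0.000323), that to 24 h was -0.77 ± 0.17 (adjusted p = 0.0175) and that to 48 h was -0.75 ± 0.17 (adjusted p = 0.0125). Over all 4 later times the F test was called (limma, adjusted p = 0.000129), but not with arrays centred on their medians (limma, adjusted p = 0.39).

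Single days and arrays decided several Cdkn2d calls. Without day 3 the 8 h difference was 0.51 (limma, adjusted p = 0.0787). The 12 h call was lost without day 2 (0.43, adjusted p = 0.192), without day 4 (0.43, adjusted p = 0.111) and without the 4 arrays that stood apart (0.38, adjusted p = 0.0643). The 36 h call was lost without day 2, 3 or 4 (limma, adjusted p = 0.169, 0.0537 and 0.126). With arrays centred on their medians the 3 differences were 0.59, 0.52 and -0.32 (limma, adjusted p = 0.338, 0.316 and 0.702), and with only the arrays compared their adjusted p was 0.187, 0.146 and 0.0584.

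In vehicle cells Cdkn2d first dipped and then rose at each step up to 36 h. The untreated arrays read 8.82, 8.80, 8.96 and 9.18. The difference of vehicle cells at 8 h from these was -0.80 ± 0.12 (limma, adjusted p = 4.57e-06), with no overlap. The signal then rose by 0.70 ± 0.12 from 8 to 12 h (limma, adjusted p = 0.00155), by 0.64 ± 0.12 from 12 to 24 h (adjusted p = 0.000557) and by 0.43 ± 0.12 from 24 to 36 h (adjusted p = 0.0244). The step to 48 h was 0.03 ± 0.12. At 48 h Cdkn2d was 1.98-fold above the untreated cells (0.99 ± 0.12, limma, adjusted p = 3.25e-08). TCDD cells spanned less of this range, from 8.75 at 8 h to 9.78 at 48 h. The step from 8 to 12 h was not called without day 2 (adjusted p = 0.0526) or day 3 (adjusted p = 0.0834), and that from 24 to 36 h was not called without any 1 of the 4 days (limma, adjusted p = 0.0661, 0.179, 0.113 and 0.0676). Both steps also lost their call with only the arrays compared and with arrays centred on their medians. In the order of the 11 means, 8 of the 10 neighbouring pairs overlapped; vehicle at 8 h lay apart below TCDD at 8 h, and TCDD at 48 h lay apart above vehicle at 24 h.

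**Figure D2:**
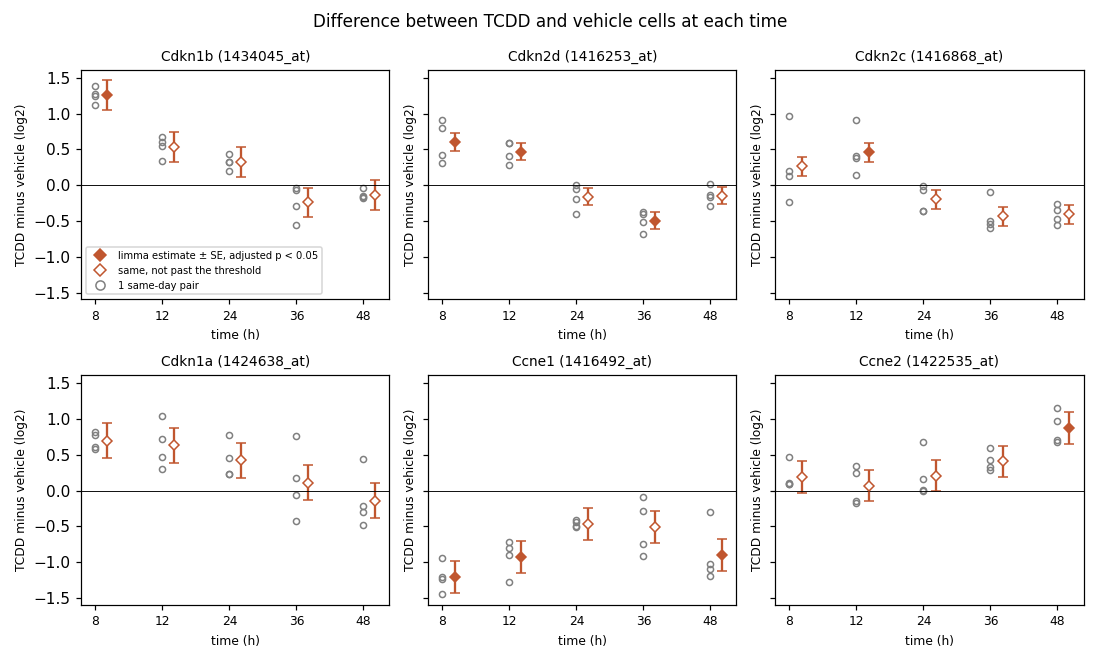
TCDD minus vehicle (log2) against time in hours for 6 members, with diamonds for the limma estimate and its SE (filled where called) and grey circles for the 4 same-day pairs. Cdkn1b, Cdkn2d and Cdkn2c start above 0 at 8 h and end below it at 36 h, whereas all same-day pairs of Ccne1 lie below 0 at each time.

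Cdkn2c, which encodes the INK4 inhibitor p18 and is known for its part in plasma cell formation, had 1 probe set (1416868_at). At 12 h the vehicle arrays read 7.51, 7.55, 7.40 and 7.94 and the TCDD arrays 7.89, 8.46, 7.81 and 8.08. TCDD cells were higher in 4 of 4 pairs while the 2 groups overlapped, and the difference was 0.46 ± 0.13 (limma, adjusted p = 0.0279). That call was lost without any 1 of the 4 days, with values between 0.31 without day 2 (limma, adjusted p = 0.426) and 0.58 without day 4 (adjusted p = 0.0574).

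At the later times Cdkn2c was lower in TCDD cells on all 4 days. At 36 h the vehicle arrays read 8.25, 8.31, 8.50 and 8.41 and the TCDD arrays 8.15, 7.82, 7.90 and 7.86. At 48 h the vehicle arrays read 8.35, 8.45, 8.46 and 8.45 and the TCDD arrays 8.09, 7.90, 8.11 and 7.98. The arrays of the 2 arms did not overlap at either time, and the differences of -0.43 ± 0.13 and -0.41 ± 0.13 were not called by limma without the day (adjusted p = 0.0608 and 0.0612) but were with it as a block (adjusted p = 0.0455 and 0.0489), and that at 36 h also without the 4 arrays that stood apart (limma, adjusted p = 0.0462). The F test of the TCDD difference over time was called (limma, adjusted p = 0.00257), with a change of -0.70 ± 0.19 from 8 to 36 h (adjusted p = 0.0557) and of -0.67 ± 0.19 from 8 to 48 h (adjusted p = 0.0471). It was lost without day 2 (adjusted p = 0.191), without day 3 (adjusted p = 0.0515) and with arrays centred on their medians (limma, adjusted p = 0.127).

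Like Cdkn2d, Cdkn2c was lower in vehicle cells at 8 h than in untreated cells (difference -0.75 ± 0.13, limma, adjusted p = 5.19e-05), and higher at 36 h (0.55 ± 0.13, adjusted p = 0.00187) and 48 h (0.61 ± 0.13, adjusted p = 0.000336). The step from 8 to 12 h was 0.53 ± 0.13 (limma, adjusted p = 0.0468). Of 16 alternatives, 10 ended that call, among them leaving out any 1 of the 4 days (values from 0.40 to 0.63) and leaving out the 4 arrays that stood apart (0.42, limma, adjusted p = 0.202). The steps from 12 to 24 h (0.37) and from 24 to 36 h (0.40) were not called (limma, adjusted p = 0.0953 and 0.0567), but both were without the 4 arrays (0.48 and 0.41, adjusted p = 0.0317 and 0.0428), and the later one with the day as a block (limma, adjusted p = 0.0439).

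Cdkn1a encodes p21, the Cip/Kip inhibitor best known as a target of p53. On its brighter probe set (1424638_at) the vehicle arrays at 8 h read 10.62, 10.49, 10.16 and 10.33 and the TCDD arrays 11.40, 11.31, 10.77 and 10.92, without overlap. The difference of 0.70 ± 0.24 was not called by limma without the day (adjusted p = 0.158) and was called with it as a block (adjusted p = 0.043), as was that at 12 h (0.63 ± 0.24, adjusted p = 0.137 without and 0.0456 with the block, but 0.0517 with a random block). The other probe set (1421679_a_at) was called at 12 h, where vehicle arrays read 8.52, 8.89, 8.97 and 8.90 and TCDD arrays 9.35, 9.63, 9.67 and 9.35. All TCDD arrays were higher, by 0.68 ± 0.20 (limma, adjusted p = 0.032). Leaving out any 1 of the 4 days ended that call, with values from 0.63 to 0.77 and limma adjusted p of 0.094, 0.216, 0.109 and 0.0722 for days 1 to 4.

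From 24 h on, Cdkn1a differences on both probe sets lay between -0.14 and 0.42 and none was called. Day 1 stood high in TCDD cells on 1424638_at, with 12.28, 12.36 and 12.29 at 24, 36 and 48 h, where the other 3 days ran from 10.93 to 11.96. In vehicle cells this probe set climbed from 10.26 in untreated cells to 11.06, 11.50 and 11.96 at 24, 36 and 48 h, where it was 3.25-fold above untreated (limma, adjusted p = 5.53e-07). The vehicle call at 24 h (0.80 ± 0.24, adjusted p = 0.0189) was lost without day 1 (0.51, adjusted p = 0.0876) and without day 2 (0.71, limma, adjusted p = 0.181). It was also lost with only the arrays compared and with arrays centred on their medians. On 1421679_a_at vehicle cells were higher than untreated ones by 0.94 ± 0.20, 1.22 ± 0.20 and 1.61 ± 0.20 at 24, 36 and 48 h (limma, adjusted p = 0.000712, 1.1e-05 and 3.03e-08), and all 3 calls were kept in each of the 15 alternatives in which it was tested.

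Cdkn1c, which encodes p57, did not pass the filter on its 1 probe set (1417649_at). Its group means lay between 4.73 and 5.43, its arrays between 4.21 and 5.97, and it entered no test.

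**Figure D3:**
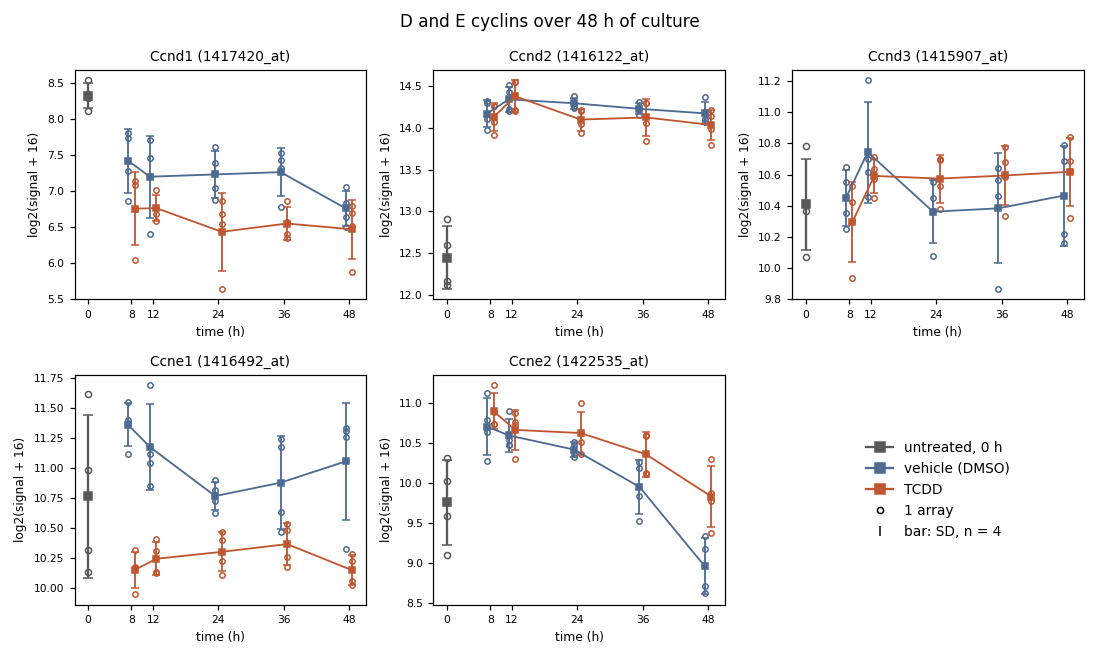
Log2(signal + 16) of the D and E cyclins against time in hours, with 1 open circle per array and squares with bars for the mean and SD of 4 arrays. Ccnd2 rises from 12.45 in untreated cells to 14.17 in vehicle cells at 8 h and stays there in both arms, Ccne1 lies lower in TCDD cells at all 5 times, and Ccne2 falls to 8.96 in vehicle cells at 48 h.

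Ccne1, the cyclin partner of Cdk2 at the G1 to S transition, was lower in TCDD cells throughout on the probe set 1416492_at. At 8 h the vehicle arrays read 11.12, 11.37, 11.40 and 11.55 and the TCDD arrays 10.18, 10.16, 9.95 and 10.31. The highest TCDD array lay well below the lowest vehicle array, and the difference was -1.21 ± 0.22 (limma, adjusted p = 0.000602), called in all 15 alternatives in which this probe set was tested. At 12 h it was -0.93 ± 0.22 (limma, adjusted p = 0.00728), with vehicle arrays of 10.85, 11.12, 11.04 and 11.69 and TCDD arrays of 10.13, 10.31, 10.14 and 10.41.

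TCDD cells were lower in 4 of 4 same-day pairs at 24 and 36 h as well, but the differences of -0.46 ± 0.22 and -0.51 ± 0.22 were not called by limma (adjusted p = 0.32 and 0.281). At 48 h vehicle arrays read 10.33, 11.33, 11.25 and 11.31 and TCDD arrays 10.03, 10.23, 10.06 and 10.29. Day 1 of the vehicle stood low among its group yet above all TCDD arrays, and the difference was -0.91 ± 0.22 (limma, adjusted p = 0.00887). The F test found no called change of the Ccne1 difference over time (limma, adjusted p = 0.529), and the TCDD means themselves stayed between 10.15 and 10.37 at all 5 times.

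The Ccne1 calls after 8 h depended on single days. That at 12 h was lost without day 2 (-0.97, limma, adjusted p = 0.0762) and without day 4 (-0.82, adjusted p = 0.114), and that at 48 h without day 2 (-0.84, adjusted p = 0.156), day 3 (-0.81, adjusted p = 0.0698) or day 4 (-0.87, limma, adjusted p = 0.0681). Both calls were also lost with only the arrays compared. Without the 4 arrays that stood apart the differences at 12 and 48 h were -0.76 and -0.82 and both were called (limma, adjusted p = 0.00627 and 0.00361). On the other, brighter probe set of Ccne1 (1441910_x_at) TCDD cells were lower in 4 of 4 pairs at 8, 36 and 48 h. Its differences of -0.81 ± 0.28 at 8 h and -0.60 ± 0.28 at 48 h were not called without the day (limma, adjusted p = 0.161 and 0.25) and were called with it as a block (limma, adjusted p = 0.00747 and 0.036), the latter not with a random block (adjusted p = 0.0672). Without the 4 arrays that stood apart the 8 h difference was -0.81 and was called (limma, adjusted p = 0.0359).

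Against untreated cells, whether Ccne1 rose in vehicle cells depended on which untreated arrays were used. The untreated arrays read 10.13, 10.32, 11.62 and 10.99, a spread wider than in any other group, with days 3 and 4 both among the arrays that stood apart. Vehicle cells at 8 h were 0.60 ± 0.22 higher (limma, adjusted p = 0.0526), called with the day as a block (adjusted p = 0.0153), and 1.13 higher without the 4 arrays (limma, adjusted p = 9.62e-05). Without those arrays the differences at 12, 36 and 48 h were called too, at 0.78, 0.65 and 0.74 (limma, adjusted p = 0.0105, 0.0198 and 0.00687), against 0.41, 0.11 and 0.29 with them. The untreated group then held days 1 and 2 only. Day 1 gave the lowest array in 8 of the 11 groups on 1416492_at and in all 11 on 1441910_x_at, so days and arrays left out cannot be told apart there. On 1441910_x_at the differences at 8 and 48 h were 0.54 and 0.44 (limma, adjusted p = 0.195 and 0.235) and, without the 4 arrays, 1.01 and 0.78 and called (limma, adjusted p = 0.00915 and 0.0374). That at 8 h was also called with the day as a block (adjusted p = 0.0343), but not with a random block (limma, adjusted p = 0.0613).

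Ccne2, the other E cyclin, followed a course of its own in vehicle cells. The untreated arrays read 10.32, 10.03, 9.59 and 9.10 and the vehicle arrays at 8 h 11.14, 10.79, 10.28 and 10.64, so vehicle cells were higher on each day, by 0.95 ± 0.22 (limma, adjusted p = 0.00145). Vehicle cells were also higher at 12 h (0.84 ± 0.22, adjusted p = 0.00476) and 24 h (0.66 ± 0.22, adjusted p = 0.0333). Without the 4 arrays that stood apart these 3 differences were 0.54, 0.47 and 0.25 and none was called (limma, adjusted p = 0.138, 0.261 and 0.609). That left untreated days 1 and 2 only, and day 1 gave the highest Ccne2 array in 8 of the 11 groups, so days and arrays left out cannot be told apart there. Without day 4 alone the 3 differences were 0.76, 0.66 and 0.41 (limma, adjusted p = 0.0534, 0.0941 and 0.378).

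The vehicle means of Ccne2 fell at each step after 8 h, when the mean was 10.71. Only the last step was called, from 9.95 at 36 h to 8.96 at 48 h (-0.99 ± 0.22, limma, adjusted p = 0.00189). That call was lost without day 2 (-0.92, limma, adjusted p = 0.0599), with only the arrays compared and with arrays centred on their medians. At 48 h the vehicle arrays read 9.34, 8.62, 8.71 and 9.17 and the TCDD arrays 10.31, 9.77, 9.38 and 9.88. Every TCDD array was higher than every vehicle array, by 0.87 ± 0.22 (limma, adjusted p = 0.011), which was 0.76 without the 4 arrays that stood apart (adjusted p = 0.0271) and was not called without day 2 (0.78, adjusted p = 0.198) or with arrays centred on their medians (0.91, limma, adjusted p = 0.22). With only the arrays compared that difference was not called either. TCDD cells were higher in 4 of 4 pairs at 36 h also, by 0.41 ± 0.22 (limma, adjusted p = 0.444). At 48 h the 2 E cyclins therefore differed in opposite directions between the arms. Relative to untreated cells, vehicle cells at 48 h were lower in Ccne2 (difference -0.80 ± 0.22, limma, adjusted p = 0.00361). That call was lost without day 2 (-0.59, limma, adjusted p = 0.112), with only the arrays compared and with arrays centred on their medians.

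Among the D cyclins, Ccnd2 carried the largest difference of vehicle from untreated cells and no called difference with TCDD. On 1416122_at the untreated arrays read 12.91, 12.60, 12.17 and 12.11, and the vehicle arrays at 8 h 14.30, 14.32, 14.11 and 13.97. All later arrays of both arms lay between 13.80 and 14.55, apart from the untreated ones. The difference at 8 h was 1.73 (limma, adjusted p = 2.43e-12) and that at 48 h was 1.73, or 3.32-fold. Without the 4 arrays that stood apart, which include the 2 lowest untreated ones, these were 1.41 and 1.35, both called (limma, adjusted p = 2.21e-09 and 6.02e-09).

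All 7 Ccnd2 probe sets were higher in vehicle than in untreated cells at all 5 times, by 1.60 to 3.65. The 7 read 1 gene and are not independent. The 1 furthest from the others was 1416124_at, whose differences of 3.07, 3.65, 3.48, 3.28 and 2.03 at the 5 times became 1.98, 2.72, 2.40, 2.19 and 1.50 without the 4 arrays. Its step of -1.25 from 36 to 48 h (limma, adjusted p = 0.0374) rested on vehicle 48 h day 2, which read 8.05 while the other 3 days read 10.20 to 10.33. Without day 2 it was -0.60 (limma, adjusted p = 0.483), and without the 4 arrays -0.70 (adjusted p = 0.0503). Between TCDD and vehicle the 7 probe sets differed by -0.36 to 0.18 from 8 to 36 h and by -0.28 to 0.76 at 48 h, with adjusted p from limma of 0.313 or more. With the day as a block the vehicle step from 8 to 12 h on 1416123_at (0.54) was called (limma, adjusted p = 0.0407), but not with a random block (adjusted p = 0.0787).

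**Figure D4:**
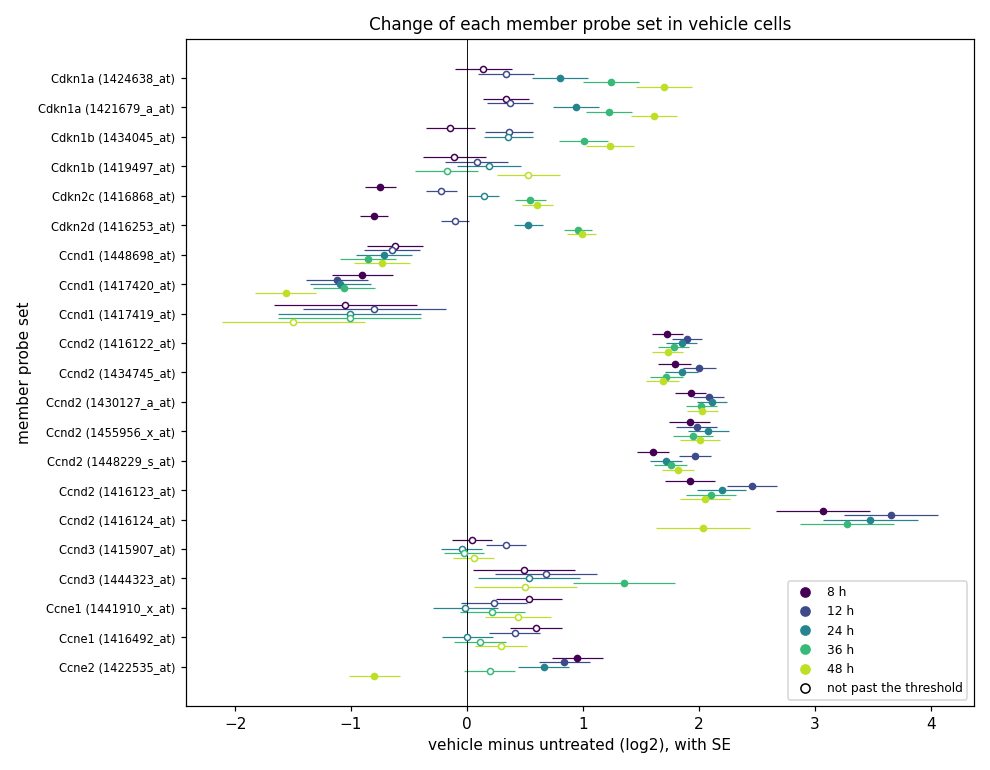
Vehicle minus untreated (log2, with SE) for the 21 member probe sets tested, coloured by time, with open circles for differences not past the threshold. The 7 Ccnd2 probe sets lie between 1.60 and 3.65, Cdkn2c and Cdkn2d move from below 0 at 8 h to above 0 at 36 and 48 h, and the 3 Ccnd1 probe sets lie below 0 at all times.

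Ccnd1, the D cyclin that lymphoid cells use little, moved the other way. On 1417420_at the untreated arrays read 8.54, 8.29, 8.35 and 8.11 and lay above every array of the other 10 groups. The vehicle difference was -0.90 ± 0.27 at 8 h (limma, adjusted p = 0.0122) and -1.56 ± 0.27 at 48 h (adjusted p = 1.01e-05), the latter 2.96-fold lower. The 8 h call was lost without day 1 (-0.77, limma, adjusted p = 0.073), without day 3 (-0.71, adjusted p = 0.148) and with arrays centred on their medians. TCDD means were below vehicle means at all 5 times on all 3 probe sets, by -0.03 to -0.80. None of these differences was called by limma with all arrays, quantile normalization and no block. At 24 h on 1417420_at vehicle arrays read 7.60, 7.39, 6.88 and 7.05 and TCDD arrays 6.86, 6.54, 6.68 and 5.64. The difference of -0.80 ± 0.27 (limma, adjusted p = 0.0817) was called with the day as a block (adjusted p = 0.04) and on values as deposited (-0.78, limma, adjusted p = 0.0236), as was that at 36 h on values as deposited (-0.77, adjusted p = 0.0348, against -0.71). On 1448698_at the 24 h difference of -0.69 was called without the 4 arrays that stood apart (-0.70, limma, adjusted p = 0.0346), with only the arrays compared (adjusted p = 0.0367) and with arrays centred on their medians (-0.68, limma, adjusted p = 0.0281).

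The other 2 Ccnd1 probe sets were less even. 1448698_at was called lower in vehicle than in untreated cells at 24, 36 and 48 h (-0.71, -0.85 and -0.74), but without the 4 arrays that stood apart at none of these (-0.36, -0.50 and -0.40, limma, adjusted p = 0.454, 0.187 and 0.27). With the day as a block the differences at 8 h (-0.62) and 12 h (-0.65) were called as well (limma, adjusted p = 0.0396 and 0.0305, against 0.0645 and 0.0511 without it). On 1417419_at untreated day 4 read 5.36 where the other 3 days read 7.90 to 8.14, and no comparison was called by the fit used throughout. The difference at 48 h was then -1.50 (limma, adjusted p = 0.0531), and it was called on values as deposited (-1.57, adjusted p = 0.0158), with the day as a block (adjusted p = 0.0108) and, at -2.11, without the 4 arrays (limma, adjusted p = 0.0182). Without day 4 the vehicle differences at 8, 36 and 48 h were -1.83, -1.83 and -2.42, all called (limma, adjusted p = 0.0223, 0.0178 and 0.0011).

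Ccnd3, the D cyclin found in most lymphoid cells, showed the narrowest course. On 1415907_at the 11 group means lay between 10.30 and 10.74 and neither TCDD nor activation was called, although the vehicle difference from untreated at 12 h (0.34) and the step from 12 to 24 h (-0.38) were with the day as a block (limma, adjusted p = 0.0227 and 0.0204). Day 1 gave the lowest array in all 11 groups. Its dim probe set 1444323_at was called once, at 36 h in vehicle against untreated cells (1.35 ± 0.44, limma, adjusted p = 0.0202), and not without day 3 (adjusted p = 0.146) or day 4 (adjusted p = 0.0835) or without the 4 arrays (limma, adjusted p = 0.148). Another dim probe set (1438805_at), with means of 4.77 to 5.62, did not pass the filter.

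Counted together, 11 of the 21 probe sets were called in vehicle against untreated cells at 8 h (8 higher, 3 lower), where 20.8% of all probe sets were. The counts were 9 at 12 h (8 higher, 1 lower, background 21.4%), 13 at 24 h (11 and 2, 16.7%), 15 at 36 h (13 and 2, 25.8%) and 15 at 48 h (12 and 3, 37.6%). Since 7 of them at each time were Ccnd2 probe sets, the same calls covered 5, 3, 5, 7 and 7 of the 9 genes tested. The median difference over the 21 was 0.50, 0.37, 0.53, 1.01 and 0.99, beside medians over all probe sets between -0.02 and 0.02. The 7 Ccnd2 probe sets, all higher by 1.60 to 3.65, raise these medians over the 21, which therefore do not describe the 9 genes alike. These 5 comparisons share the untreated arrays, and the vehicle arrays are shared with the TCDD comparisons. Between successive vehicle times 2, 1, 1 and 2 of the 21 were called, where 0.721%, 6.72%, 7.25% and 12.7% of all were. The F test of the TCDD difference over time called 3 of 21, Cdkn1b, Cdkn2c and Cdkn2d, where 3.97% of all probe sets were called.

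The genes around these members were read from a list of 37 kinases, pocket proteins, E2F factors, degradation factors and upstream regulators, of which 33 were tested on 1 probe set each. In TCDD against vehicle cells 1 of the 33 rose and 2 fell at 8 h, where 2.52% of all probe sets were called. E2f7, a repressor of the E2F family that is itself induced in S phase, rose by 1.41 ± 0.13 (limma, adjusted p = 1.02e-09). Myc, a transcription factor that drives growth and cyclin genes, fell by 0.68 ± 0.09 (limma, adjusted p = 5.76e-06), and Cdk6, a kinase that D cyclins activate, by 0.40 ± 0.10 (adjusted p = 0.0171). At 12 h, where 5.82% of all probe sets were called, E2f7 rose by 1.32 and Myc fell by 0.47. At 24 h, where 4.74% were called, E2f7 rose by 0.59 and 0 fell. At 36 and 48 h limma called 0 of the 33 (3.53% and 6% of all probe sets), with 7 and 8 below an unadjusted p of 0.05. The list's medians lay between -0.13 and 0.06.

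In vehicle against untreated cells 8 of the 33 rose and 6 fell at 8 h, 5 and 4 at 12 h, 4 and 0 at 24 h, 6 and 4 at 36 h, and 8 and 10 at 48 h, where 20.8%, 21.4%, 16.7%, 25.8% and 37.6% of all probe sets were called. Rb1, the retinoblastoma pocket protein that E2F factors are held by, differed by -1.10 ± 0.23 at 8 h (limma, adjusted p = 0.000416) and by 0.95 ± 0.23 at 48 h (adjusted p = 0.000911). Mdm2, which targets p53 for degradation, was higher at all 5 times, by 0.72 ± 0.17 at 8 h and 1.78 ± 0.17 at 36 h (limma, adjusted p = 0.00205 and 3.93e-10). Foxo3, a factor known to drive Cdkn1b, was lower at 8 h (-0.87 ± 0.25, adjusted p = 0.0106) and higher at 48 h (1.05 ± 0.25, limma, adjusted p = 0.000993). E2f2 was higher at 24 h by 1.41 and at 36 h by 1.84, and Rbl1, the pocket protein p107, at 36 h by 0.88 and at 48 h by 1.07.

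The genes whose 11 group means followed a member most closely, among 11969 searched by Pearson's r, were Enah (0.975) and Plgrkt (0.975) for Cdkn1a, Dram2 (0.942) and Snx20 (0.925) for Cdkn1b, Prr14 (0.983) and Sqle (0.973) for Cdkn2c, and Fermt3 (0.977) and Camk2n2 (0.971) for Cdkn2d. For Ccnd1 they were Zc3h13 (0.941) and Gga2 (0.935), for Ccnd2 Il2ra (0.971) and Suox (0.953), and for Ccne2 Eif4a1 (0.977) and Vps50 (0.971). These are descriptions over 11 means that share arrays, chosen as the highest of many.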

How the data were processed

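RNA from 44 cultures of CH12.LX cells was hybridised to Affymetrix Mouse430_2 arrays. Per the submitters' processing notes GCOS 1.0 produced the deposited signal, an intensity on a linear scale, which the values show the authors scaled to a like trimmed mean per array. The rest of the upstream work is not given in the sources used here. Because column medians of log2(value + 16) spanned 0.914, above a limit of 0.2, the intensities were quantile normalized and turned into log2(value + 16). Of 45101 probe sets 64 controls were left out, 34945 had 1 gene symbol in GEO's platform annotation, 932 several and 9160 none. All 10 members matched the GRCm38.p6 gene table by identifier.

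All 44 arrays entered 1 model of the 11 groups (limma 3.58.1, R 4.3.3), and tests were two-sided, with Benjamini-Hochberg adjustment per comparison over the 25236 probe sets whose highest group mean was above 6.21. The replicates are cultures of 1 line, so p-values reflect only how those cultures vary. Python 3.11.15 and matplotlib 3.10.9 drew the plots, and the scripts were tested on simulated data.

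The design text puts each replicate number on a day of its own, so the numbers pair the samples. Same-day arrays of different groups deviated together with a median r of 0.17, against -0.06 for other days, and r was above 0.1 in 18 of 20 same-time TCDD and vehicle pairs. The fit without the day is the main one, and values with the day as a fixed block stand beside the results whose call they change.

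The members and the list of partner genes were chosen with earlier results of these data known. All 10 members were named, with up to 4 of the largest called partner changes per comparison and the 2 closest patterns per member whose means spanned more than 1. Alternatives were a fixed or a random block for the day, leaving out each day, only the arrays compared, leaving out 4 arrays, values as deposited, median centring, no or a stricter filter, pseudocounts of 1 and 64, 1 probe set per gene and an intensity trend.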

Additional observations from a re-analysis of the deposited data

Results flagged for a closer look

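In 11 of 231 sets of 4 replicate arrays, 1 array lay far from the other 3, its gap divided by the whole range being above the 95% critical value of Dixon's test; chance gives about 1 such set in 20. For the inhibitors these were day 1 of vehicle at 24 h for Cdkn1b (9.27, others 8.69 to 8.77) and day 1 of vehicle at 48 h for Cdkn2c (8.35, others 8.45 to 8.46). For Ccnd1 they were untreated day 4 (5.36) and vehicle 36 h day 3 (5.07) on 1417419_at, and vehicle 12 h day 4 (8.39) on 1448698_at. For Ccnd2 they were vehicle 48 h day 2 on 1416124_at (8.05, others 10.20 to 10.33) and on 1455956_x_at (13.83), and vehicle 24 h day 2 on 1448229_s_at (12.58). The rest were TCDD 36 h day 1 for Ccnd3 on 1444323_at (5.43), vehicle 48 h day 1 for Ccne1 on 1416492_at (10.33, others 11.25 to 11.33) and vehicle 12 h day 1 for Ccne2 (10.90). Of the arrays behind these 11 sets, those of untreated day 4, vehicle 12 h day 4 and vehicle 48 h day 2 also stood apart in technical measures.

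The TCDD difference changed with time, by the limma F test, for Cdkn1b on 1434045_at, Cdkn2c and Cdkn2d. The difference at 36 h minus that at 8 h was -1.50 for Cdkn1b on 1434045_at and -1.10 for Cdkn2d, both called, and -0.70 for Cdkn2c, not called on its own (limma, adjusted p = 0.0557). On the dim Cdkn1b probe set 1419497_at it was -0.28, and the F test was not called (limma, adjusted p = 0.42).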

How the results depend on the processing

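Of the 79 differences called among the 21 probe sets in the 14 two-group comparisons, 52 kept their call in every alternative in which they were tested and 0 changed direction. The replicate block kept all 79. Using only the arrays compared kept 55, leaving out the 4 arrays that stood apart 69, centring arrays on their medians 63, no filter 72, and values as deposited 77. Without day 1, 2, 3 or 4, 71, 63, 65 and 64 were kept. The 10 TCDD calls among the 79 were kept less often. The replicate block and values as deposited kept all 10, leaving out the 4 arrays 9 and no filter 8. Centring arrays on their medians kept 4 of the 10, and using only the arrays compared kept 1. Without day 1, 2, 3 or 4, 8, 3, 5 and 4 of the 10 were kept. Depth is not given by arrays; signal over background limits Cdkn1c and the dim probe sets.

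Counts below are of called member probe sets and name only those outside 1.5 times the main count; the cause was not tested. Of the TCDD comparisons at 8, 12, 24, 36 and 48 h (3, 4, 0, 1 and 2 called), the replicate block gave 5 at 8 h, 1 at 24 h, 2 at 36 h and 4 at 48 h, the random block 5 at 8 h, 2 at 24 h and 2 at 36 h, and only the arrays compared 1, 0, 1, 0 and 0. Leaving out the 4 arrays gave 1 at 24 h and 2 at 36 h, as did values as deposited and the stricter filter. Median centring gave 1 at 12 h, 1 at 24 h, 0 at 36 h and 1 at 48 h. No filter gave 2 at 12 h, a pseudocount of 64 gave 2 at 36 h, and 1 probe set per gene gave 2 at 12 h and 2 at 36 h. Leaving out 1 day gave 2 to 3, 0 to 2, 0 to 0, 0 to 1 and 0 to 2.

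For vehicle against untreated cells (11, 9, 13, 15 and 15), only 1 probe set per gene went outside that limit, with 4, 3, 5, 6 and 7 of 9 genes. Leaving out 1 day gave 10 to 12, 8 to 10, 10 to 11, 14 to 15 and 15 to 15. For the vehicle steps from 8 to 12, 12 to 24, 24 to 36 and 36 to 48 h (2, 1, 1 and 2), the replicate block gave 4, 2 and 3 for those starting at 8, 12 and 24 h and the random block 3 and 3 for those starting at 12 and 24 h. Only the arrays compared gave 0 for those starting at 8, 24 and 36 h, as did median centring. Leaving out the 4 arrays gave 1, 2 and 3 from 8, 12 and 24 h, no filter 1, 0 and 1 from 8, 24 and 36 h, 1 probe set per gene 3 and 1 from 24 and 36 h, a pseudocount of 64 gave 1 and 3 and an intensity trend 1 and 2 from 8 and 24 h, and values as deposited and the stricter filter 3 from 24 h. Leaving out 1 day gave 0 to 1, 1 to 1, 0 to 1 and 1 to 2. The F test (3) gave 0 with median centring and 1 to 3 without 1 day.

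Median centring moved the median of all probe sets by 0.103 in TCDD against vehicle at 36 h, and no other scaling moved it by more in any comparison.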
